A study of Mus musculus with 2 samples.

Results

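The genes described here were 8 interferon-induced GTPases, found by their symbols in the gene list shared by both libraries. They comprised the guanylate-binding proteins (GBPs) Gbp2, Gbp3, Gbp4, Gbp5 and Gbp7 and the immunity-related GTPases (IRGs) Irgm1, Igtp and Iigp1. Each symbol belonged to 1 of the 55357 genes listed, of which 28475 had at least 1 unique molecular identifier (UMI), the tag that marks a captured RNA molecule. All 8 were detected in both libraries, with 82111 UMIs in the Lyz2-icre library and 58613 in the control library.

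MC38 is a mouse colon carcinoma line, and its tumours had been grown in mice of either genotype and sorted for live leukocytes, positive for CD45 and negative for the dead-cell dye 7-AAD. One library came from SPP1fl/fl-Lyz2-icre mice (called Lyz2-icre here) and the other from SPP1fl/fl mice without the driver (called control). Mice of both groups therefore carried the floxed Spp1 alleles, Spp1 being the gene for osteopontin. The study asked how osteopontin made by macrophages acts on colorectal cancer. In the Lyz2-icre mice, Cre recombinase is driven from the lysozyme locus Lyz2, which is active in macrophages, monocytes and neutrophils, and can also reach some dendritic cells. There was 1 library per genotype, the number and age of the mice were not stated, and transcripts of both sexes were present in each library. With no replicate, no difference between the genotypes could be tested. Intervals given below are at 95% and cover the counting of UMIs or cells, not the spread between mice, and they are too narrow where UMIs are concentrated in few cells.

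GBPs and IRGs are large GTPases that cells make in response to interferons, above all interferon gamma, and through which a single infected cell attacks microbes inside it. GBPs assemble on bacteria and on the vacuoles of parasites and help to switch on inflammasomes. Among the IRGs of the mouse, effector proteins such as Iigp1 disrupt the parasite vacuole, while regulatory proteins such as Irgm1 and Igtp keep the effectors away from the membranes of the host. In a tumour without an infection, their transcripts are commonly read as a sign that cells have sensed interferon.

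In the GENCODE vM21 annotation of mm10, 4 members lay close together on the plus strand of chromosome 3. These were Gbp5 (chr3:142493978-142522344), Gbp7 (chr3:142530342-142550149), Gbp3 (chr3:142560026-142573209) and Gbp2 (chr3:142620602-142638008). Gbp4 lay on the minus strand of chromosome 5 (chr5:105115767-105139586) and overlapped Gbp8 and Gbp9 on its own strand, as Gbp7 did Gm43802. Irgm1 (chr11:48861968-48871683, minus strand) and Igtp (chr11:58199556-58207591, plus strand) were both on chromosome 11 and Igtp overlapped Irgm2. Counts of Gbp4, Gbp7 and Igtp are uncertain to the extent that reads were split or lost between these overlapping genes, and the related sequences of the family make the same possible for other members. Levels are therefore compared for each gene across cell types and libraries, and never between genes.

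RefSeq promoters (build GRCm38.p6) were searched for 6 of the 8 members, with 7 promoters in all. Gbp4 had no entry and Iigp1 was left out of the search, so the counts of members below cover these 6 only. The promoters are shown because these 6 members share a sequence feature that their choice did not use. Of the 7 promoters 6, one for each of these members, held the letters of an interferon-stimulated response element (ISRE), searched as TTTC, 2 bases of any kind and TTTC, or on the other strand GAAA, 2 bases and GAAA, between 250 bases before and 50 bases after the start site. Over all 32851 promoters searched, 1131 (3.44%) held a match. The members were chosen as interferon-induced genes, so an interferon motif in their promoters is not a result independent of that choice. Gbp2, Gbp3, Gbp5 and Gbp7 are also related genes that lie close together on chromosome 3. The letters of a gamma-activated site (GAS), TTCNNNGAA, which read the same on both strands, occurred in 3 of the 6 (Gbp5, Gbp7 and Igtp) and in 8.30% of all promoters, and both motifs together in 0.454% of all promoters. The other promoter of Gbp3 held neither motif. ISRE and GAS matches overlapped in none of the 7. The stretches below are 100 bases long, run 5′ to 3′ on the strand of the gene and lie before the start site, with matches of either motif in capitals. The first base of the ISRE nearest the start site was at position -59 in Gbp2, -39 in Gbp3, -165 in Gbp5, -53 in Gbp7, -24 in Irgm1 and -34 in Igtp, with the start site counted as 0. Gbp3 and Irgm1 each held 2 overlapping ISRE matches, and a match describes letters and not a site in use.
Gbp2, chr3:142620559-142620658: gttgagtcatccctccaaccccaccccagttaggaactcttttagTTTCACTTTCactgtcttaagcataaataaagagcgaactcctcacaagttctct
Gbp3, chr3:142559944-142560043: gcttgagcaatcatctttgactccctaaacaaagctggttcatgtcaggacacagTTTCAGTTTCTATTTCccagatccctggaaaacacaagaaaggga
Gbp5, chr3:142496724-142496823: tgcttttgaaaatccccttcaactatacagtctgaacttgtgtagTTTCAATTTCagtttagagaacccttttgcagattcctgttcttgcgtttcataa
Gbp7, chr3:142530236-142530335: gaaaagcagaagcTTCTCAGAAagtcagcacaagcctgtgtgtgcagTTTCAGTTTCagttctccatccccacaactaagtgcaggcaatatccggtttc
Irgm1, chr11:48871421-48871520: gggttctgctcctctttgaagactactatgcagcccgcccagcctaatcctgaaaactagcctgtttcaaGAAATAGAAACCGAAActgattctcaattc
Igtp, chr11:58199456-58199555: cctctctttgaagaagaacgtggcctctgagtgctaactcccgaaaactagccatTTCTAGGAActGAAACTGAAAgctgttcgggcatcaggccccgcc

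After filtering, the Lyz2-icre library held 13915 cells with 98256831 UMIs and a median of 6374 UMIs per cell, and the control library 8724 cells with 88047097 UMIs and a median of 9379.5. Before filtering, 43 cell barcodes occurred in both. Cells were assigned to 14 classes by marker UMIs alone, and 9 classes reached 50 cells in each library. Macrophage-like cells, gated on the complement genes C1qa, C1qb and C1qc, numbered 10562 (75.9%) and 5855 (67.1%), at median depths of 6848 and 10164 UMIs. Of all cells kept, in any class or none, 653 and 415 lay within a factor of 2 above the C1q threshold. Within the same factor below it lay 457 and 404 cells. Cells in no gate (8.37% and 9.82%) or in more than one (4.28% and 5.44%) were kept out of the classes. Spp1 stood at 4.96 CPM in Lyz2-icre and 667 CPM in control macrophage-like cells, where CPM is the UMIs of a gene scaled to 1000000 UMIs of the class. The exons that are floxed were not stated, so a tag at the 3′ end need not report their loss. Carried-over macrophage RNA was gauged by the C1q genes, which in the other 8 classes of 50 cells stood at 1.65 to 7.69% of their macrophage level. Gating limits this share in advance, since cells that also passed the C1q gate were set aside, and monocyte-like and cDC2-like cells needed under 12 C1q UMIs per 10000, so it is a lower reading of carry-over. The fibroblast or tumour-like class had 23.5 and 21.5 CPM of Ptprc, the gene of CD45, against 441 and 465 CPM in macrophage-like cells. The surface protein used for the sort was not measured here.

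Each member had its own distribution over the cell classes. Gbp2, which coats parasite vacuoles and is needed for resistance to Toxoplasma in mice, was high in several myeloid classes. It stood at 275 and 243 CPM in Lyz2-icre and control macrophage-like cells, 325 and 241 in monocyte-like cells and 346 and 243 in migratory dendritic-like cells. The intervals of these 3 classes overlapped in the control library, while in the Lyz2-icre library macrophage-like cells lay below the others. Fibroblast or tumour-like cells had 255 and 158 CPM, and neutrophil-like cells 308 CPM (188 to 475) and 87.2 CPM (62.0 to 119.2). The lowest were NK-like lymphocytes (34.2 and 31.7 CPM) and CD8 T-like lymphocytes (57.7 and 66.1 CPM), at 12.5 to 27.2% of the macrophage level.

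Gbp5, which promotes assembly of the NLRP3 inflammasome, was highest in migratory dendritic-like cells, the Ccr7-positive cells that carry antigen to lymph nodes. Its level there was 164 CPM in the Lyz2-icre and 153 CPM in the control library, or 333% and 377% of the macrophage level. The interval of no other class overlapped this in the control library, and in the Lyz2-icre library that of neutrophil-like cells did, on 6 UMIs. Gbp7, which in mice binds subunits of the phagocyte oxidase, was lowest where Gbp5 was highest, in migratory dendritic-like cells (38.7 and 18.8 CPM). Regulatory T-like cells were highest (255 and 193 CPM), followed by fibroblast or tumour-like cells (178 and 159 CPM), whose interval overlapped with theirs in the control library only.

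Gbp4 was the only member of the 8 with a higher level in CD8 T-like than in macrophage-like cells, at 91.3 and 92.5 CPM against 63.8 and 51.9 CPM. In regulatory T-like cells it reached 92.3 CPM in the Lyz2-icre and 141 CPM in the control library, and in NK-like cells 66.4 and 69.2 CPM. The intervals of CD8 T-like, regulatory T-like and migratory dendritic-like cells overlapped in the Lyz2-icre library, so their order there is not resolved. Gbp3 was highest in monocyte-like cells in the Lyz2-icre library (100.2 CPM, against 67.2 CPM in control) and in regulatory T-like cells in the control library (73.9 and 102 CPM). Its level in macrophage-like cells was 67.4 and 71.6 CPM, and in cDC2-like, NK-like and CD8 T-like cells at most 31.1 CPM in either library.

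Among the IRGs, Igtp was highest in regulatory T-like cells of the 9 classes. This regulator, also known as Irgm3, was at 207 CPM in the Lyz2-icre and 153 CPM in the control library there, or 495% and 432% of the macrophage level of 41.8 and 35.5 CPM. Those values rested on 56 UMIs in 64 cells and 78 UMIs in 88 cells. Fibroblast or tumour-like cells were next in both libraries with 99.9 and 85.1 CPM. Conventional CD4 T-like cells, too few for the ordering, had 114 CPM in both libraries (19 and 42 UMIs), and gamma-delta T-like cells, also too few, had 173 CPM (112 to 256) and 81.0 CPM (51.9 to 120.5).

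The effector Iigp1, also called Irga6 and encoded on chromosome 18, was high in 3 classes. Fibroblast or tumour-like cells had 234 and 231 CPM, regulatory T-like cells 144 and 128 CPM and macrophage-like cells 141 and 92.0 CPM. The other 6 classes were at 43.9 CPM or less, and monocyte-like cells had 28.1 CPM in the Lyz2-icre and 13.8 CPM in the control library, only 19.8% and 15.05% of the macrophage level. Gbp2 and Irgm1, in contrast, were about as high in monocyte-like as in macrophage-like cells or higher. Irgm1, the regulator needed in mice for resistance to mycobacteria, had 103 and 44.2 CPM in monocyte-like and 94.0 and 69.0 CPM in fibroblast or tumour-like cells, against 54.2 and 39.3 CPM in macrophage-like cells.

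**Figure D1:**
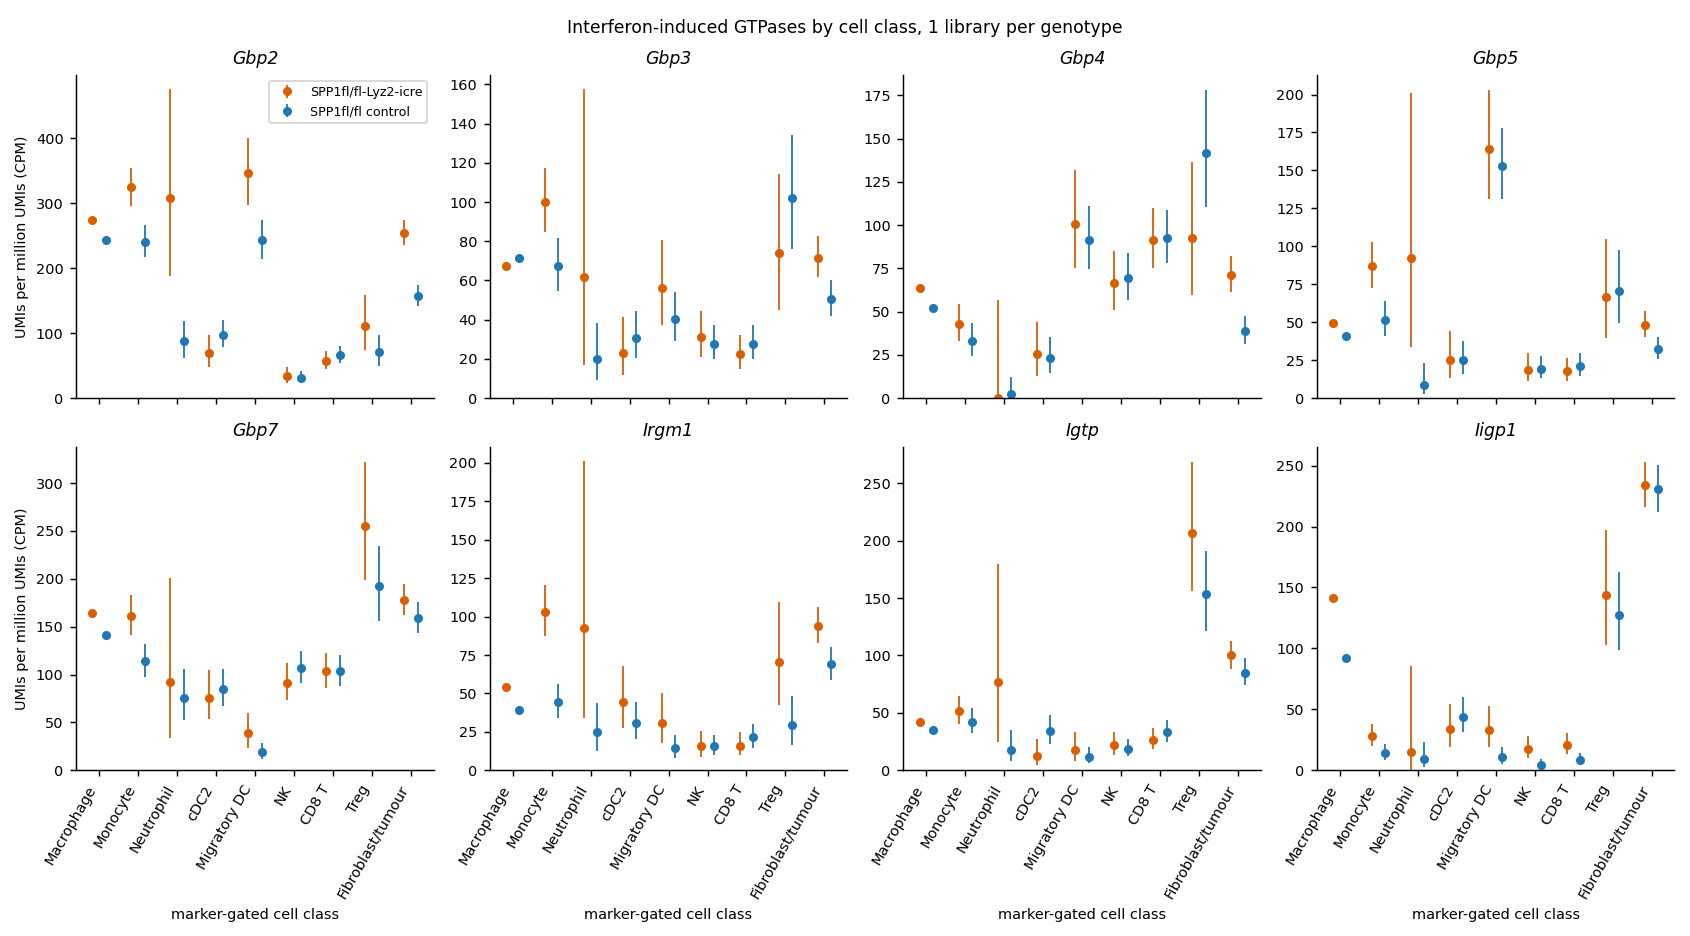
Level of each gene in CPM (y axis, from 0, a scale of its own per gene) in the 9 cell classes with at least 50 cells in each library (x axis), orange for SPP1fl/fl-Lyz2-icre on the left and blue for SPP1fl/fl control on the right; bars are exact Poisson 95% intervals of the UMI count. Gbp5 peaks in migratory dendritic-like cells (164 and 153 CPM), Igtp in regulatory T-like cells (207 and 153 CPM) and Iigp1 in fibroblast or tumour-like cells (234 and 231 CPM).

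In macrophage-like cells, the class in which Cre is expected to act and the one with most cells, 7 of the 8 members were higher in the Lyz2-icre library and Gbp3 was lower. The class was not made up alike in both libraries: of the clusters mostly of such cells, 1 held 2040 Lyz2-icre and 438 control cells, 1 held 756 and 63, and 1 held 1074 and 1418. Summed over the 8, the level was 857 CPM in Lyz2-icre cells (66893 UMIs) and 715 CPM in control cells (45033 UMIs), a ratio of 1.20 (1.18 to 1.21, log2 0.26). Only Iigp1 passed 1.5-fold on the log2(CPM + 5) scale, the size used here to call a difference, and it did so narrowly (log2 0.59 where 1.5-fold is 0.58). The value was 0.57 with gate thresholds doubled, which ends the call. Of the 7932 genes at 10 CPM or more in either library, 3657 were higher at any size, 25 (0.315%) were higher by 1.5-fold and 72 (0.908%) lower by 1.5-fold. The median log2 ratio was 0.23 over the members and -0.01 over all those genes.

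Iigp1 and Irgm1 differed most. Iigp1 had 141 CPM in Lyz2-icre and 92.0 CPM in control macrophage-like cells (ratio 1.54, 1.49 to 1.59), and Irgm1 54.2 and 39.3 CPM (1.38, 1.31 to 1.45). Intervals of these ratios overlapped with none of the other members. Igtp, at 41.8 and 35.5 CPM (1.18, 1.12 to 1.24), lay among the GBPs.

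The GBPs had smaller ratios than these 2 IRGs in the pooled cells. Gbp4 had 63.8 CPM in Lyz2-icre and 51.9 CPM in control cells (ratio 1.23, 1.18 to 1.29), Gbp5 49.4 and 40.6 CPM (1.21, 1.16 to 1.28) and Gbp7 164 and 141 CPM (1.16, 1.13 to 1.20). Gbp2 was at 275 and 243 CPM (1.13, 1.11 to 1.16). Gbp3 was at 67.4 and 71.6 CPM (0.941, 0.905 to 0.980), a ratio whose interval lay below 1. The members thus spread from 0.941 to 1.54 in the same cells, with intervals of the extremes far apart.

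Read as shares of cells, the difference was present at equal depth. With each cell thinned to 2000 UMIs, which left out 1129 and 370 shallower macrophage-like cells, 61.1% of Lyz2-icre cells (60.1 to 62.1%) and 52.3% of control cells (51.0 to 53.6%) had a UMI of at least 1 member. Without thinning these shares were 82.7% and 82.5%, at the different median depths given above. Iigp1 was detected in 16.9% and 10.4% of thinned cells, Gbp2 in 30.6% and 24.1%, and Gbp3 in 11.6% and 12.5%.

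In the other classes of 50 cells, the sum was higher in the Lyz2-icre library in 4, and in the other 4 the interval of its ratio included 1. In monocyte-like cells (368 and 203 cells, at median depths of 3679 and 7064 UMIs) it was 898 CPM in the Lyz2-icre and 606 CPM in the control library (ratio 1.48, 1.36 to 1.61). All 8 members were higher there, as were 4213 of 7778 genes at any size, and the intervals of Gbp4 and Igtp included 1. Passing 1.5-fold were Irgm1 at 103 and 44.2 CPM (2.33, 1.74 to 3.15), Gbp5 at 86.8 and 51.4 CPM (1.69, 1.27 to 2.27) and Iigp1 on 42 and 21 UMIs (2.03, 1.17 to 3.60), where 4.9% of 7778 genes were higher by that size and 4.37% lower. The Iigp1 level in these cells lay at 15.05 to 19.8% of that of macrophage-like cells, beside 2.99 and 2.93% for the C1q genes. The gate limited C1q in this class in advance, and the part of carried-over RNA in the Iigp1 level was not tested. Among male monocyte-like cells (93 and 41 cells), the sum had a ratio of 1.05 (0.889 to 1.25) and 4 of the 8 members were lower. Gbp5 had a ratio of 0.930 there (0.539 to 1.62) and Iigp1 of 0.466 on 7 and 11 UMIs (0.153 to 1.32), so neither call holds in male cells.

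Fibroblast or tumour-like cells (263 and 168 cells) had a sum of 1051 CPM in the Lyz2-icre and 824 CPM in the control library (ratio 1.28, 1.20 to 1.35). Gbp4, with 71.2 and 38.8 CPM (1.83, 1.43 to 2.37), and Gbp2, with 255 and 158 CPM (1.61, 1.42 to 1.83), passed 1.5-fold, where 2.46% of 9386 genes were higher and 3.54% lower. With gate thresholds doubled, both calls ended (log2 0.57 for Gbp4 and 0.44 for Gbp2). Iigp1, the member that differed most in macrophage-like cells, had 234 and 231 CPM here (1.01, 0.902 to 1.14). Sex could be read in few of these cells. The ratio of the sum was 0.594 (0.494 to 0.712) in 23 and 15 cells read as female and 2.25 (1.80 to 2.84) in 7 and 5 read as male. Whether cells of this class were host or tumour line was not determined, so this reading need not give the sex of the mouse. The difference between the cell classes was not tested.

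Migratory dendritic-like cells (104 and 143 cells) had sums of 787 and 583 CPM (ratio 1.35, 1.19 to 1.53). All 8 members were higher, as were 3520 of 7458 genes at any size, and the intervals of Gbp3, Gbp4, Gbp5 and Igtp included 1. The 3 that passed 1.5-fold were Gbp7 (20 and 21 UMIs), Irgm1 (16 and 16 UMIs) and Iigp1 (17 and 12 UMIs), and 8.81% of 7458 genes were higher and 11.3% lower by that size. Gbp5, the gene most marked in this class, had 164 and 153 CPM (1.07, 0.817 to 1.40). On such counts the 3 calls are weak.

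Lymphocytes showed no common direction. NK-like cells (197 and 207 cells) had sums of 297 and 294 CPM (ratio 1.01, 0.868 to 1.17), while 310 and 250 lymphocytes of the CD8 T-like class had 356 and 374 CPM (0.951, 0.839 to 1.08). Iigp1 alone passed 1.5-fold in each, with 17.6 and 4.53 CPM in NK-like (17 and 7 UMIs) and 20.8 against 8.18 CPM in the CD8 T-like class (26 and 13 UMIs). Background shares were 3.07% higher and 8.4% lower of 8366 genes in NK-like cells, and 3.16% and 6.58% of 8489 in CD8 T-like cells. These Iigp1 values were 12.5% (NK-like) and 14.7% (CD8 T-like) of the macrophage level in the Lyz2-icre library and 4.92% and 8.9% in the control library, beside 2.84 to 3.79% for the C1q genes, and the part of carried-over RNA in them was not tested.

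Regulatory T-like cells (64 and 88 cells), the highest class for Igtp and Gbp7, had sums of 1019 and 888 CPM (ratio 1.15, 0.985 to 1.34). Irgm1 (19 and 15 UMIs, 2.38, 1.15 to 5.04) and Gbp2 (30 and 36 UMIs, 1.57, 0.932 to 2.62) passed the size upward and Gbp4 (25 and 72 UMIs, 0.653, 0.397 to 1.04) downward, with 14.4% of 9013 genes higher and 16.9% lower. With gate thresholds doubled, Gbp2 was at log2 -0.074 there. The members' 3 calls of 8 therefore stood on a background where nearly as large a share of all genes was called.

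In cDC2-like cells (67 and 95 cells), the sum was 310 CPM in the Lyz2-icre and 370 CPM in the control library (ratio 0.837, 0.685 to 1.02). Igtp, on 6 and 31 UMIs (0.371, 0.127 to 0.903), was called lower, where 10.7% of 8203 genes were higher and 11.1% lower. Neutrophil-like cells numbered 59 and 154, at median depths of 1048 and 2551.5 UMIs, and the sum of 739 and 246 CPM rested on 48 and 110 UMIs (3.003, 2.09 to 4.25). Of 7 members at 10 CPM, 5 were called higher there, against 36.6% of 6909 genes higher and 25.0% lower. Scaling by the median ratio of genes moved log2 ratios in that class by 0.46, and the ratio of the sum was then 2.16, while with cells named by cluster it was 1.68. Classes with under 50 cells in a library went in both directions. The sum was lower in the Lyz2-icre library in cDC1-like cells, with 195 and 350 CPM (0.556, 0.425 to 0.721, 44 and 42 cells). In CD4 T-like cells it was also lower, with 498 and 657 CPM (0.758, 0.583 to 0.976, 44 and 67 cells). Mast or basophil-like cells had the higher sum, with 589 and 121 CPM (4.88, 2.43 to 9.92) on 20 and 17 UMIs in 14 and 37 cells. The interval included 1 in plasmacytoid dendritic-like (1.37, 0.683 to 2.67) and gamma-delta T-like cells (0.924, 0.707 to 1.20).

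**Figure D2:**
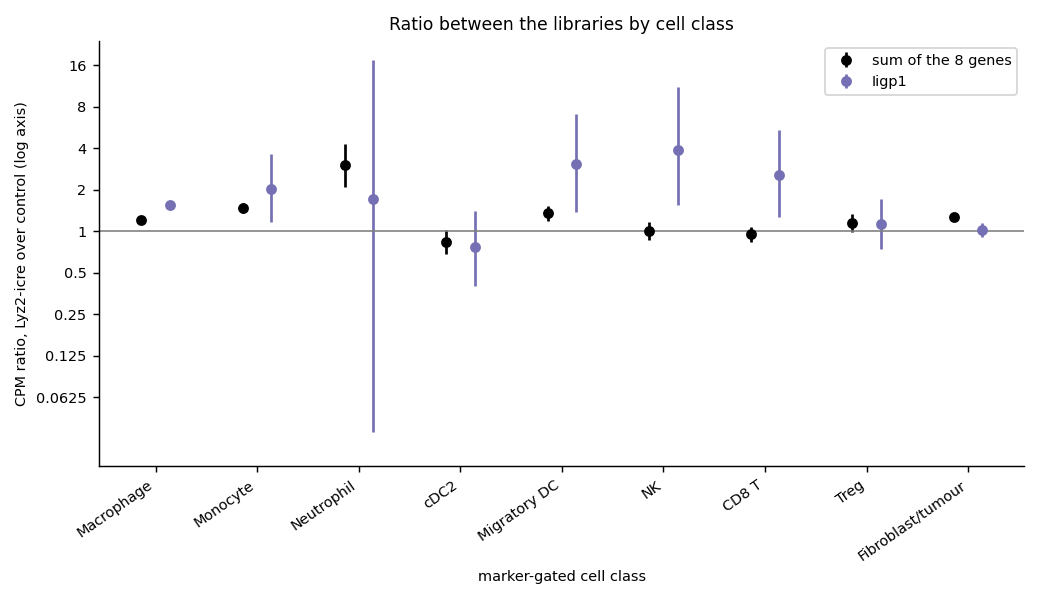
Ratio of CPM, Lyz2-icre over control (y axis, log scale), for the sum of the 8 genes (black, left) and for Iigp1 (violet, right) in the 9 cell classes (x axis); bars are exact conditional 95% intervals of the 2 UMI counts. The sum lies above 1 in macrophage-like (1.20), monocyte-like (1.48), migratory dendritic-like (1.35) and fibroblast or tumour-like cells (1.28), and its interval includes 1 in NK-like, CD8 T-like, regulatory T-like and cDC2-like cells.

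Cells of female and male mice differed in these genes, and the comparison of libraries differed with them. Macrophage-like cells with a Xist UMI and none of 4 Y-linked genes were read as female (6051 and 3503 cells), the reverse as male (1925 and 1387 cells). All 8 members were lower in female than in male cells within each library. Female cells had a sum of 790.2 CPM and male cells 983 CPM in the Lyz2-icre library (ratio 0.804, 0.789 to 0.819), while the control library had 593 CPM in female and 926 CPM in male cells (0.641, 0.627 to 0.654).

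Between the libraries, the sum had a ratio of 1.33 (1.31 to 1.36) in female cells and 1.06 (1.04 to 1.09) in male cells. Gbp2 went in opposite directions, at 256 CPM in Lyz2-icre and 178 CPM in control female cells (1.44, 1.40 to 1.49), but 308 and 357 CPM in male cells (0.862, 0.830 to 0.896). Iigp1 was higher in both, with 133 and 72.6 CPM in female (1.83, 1.75 to 1.92) and 160 and 127 CPM in male cells (1.25, 1.18 to 1.33), and it passed 1.5-fold only in female cells. There 1.14% of 7984 genes were higher and 1.34% lower, and among male cells 1.01% of 7906 higher and 1.69% lower.

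The regulatory IRGs differed little between the sexes in this ratio. Irgm1 was at 1.39 (1.30 to 1.49) in female and 1.34 (1.21 to 1.47) in male cells, and Igtp at 1.21 and 1.18. Gbp4 had the larger ratio in female cells (1.44 and 1.09), Gbp5 (1.12 and 1.30) and Gbp7 (1.13 and 1.24) in male cells, and Gbp3 was at 0.952 and 0.930. The number of mice of each sex was not stated, so sex cannot be told apart from single animals, and the difference between the sexes was not tested.

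**Figure D3:**
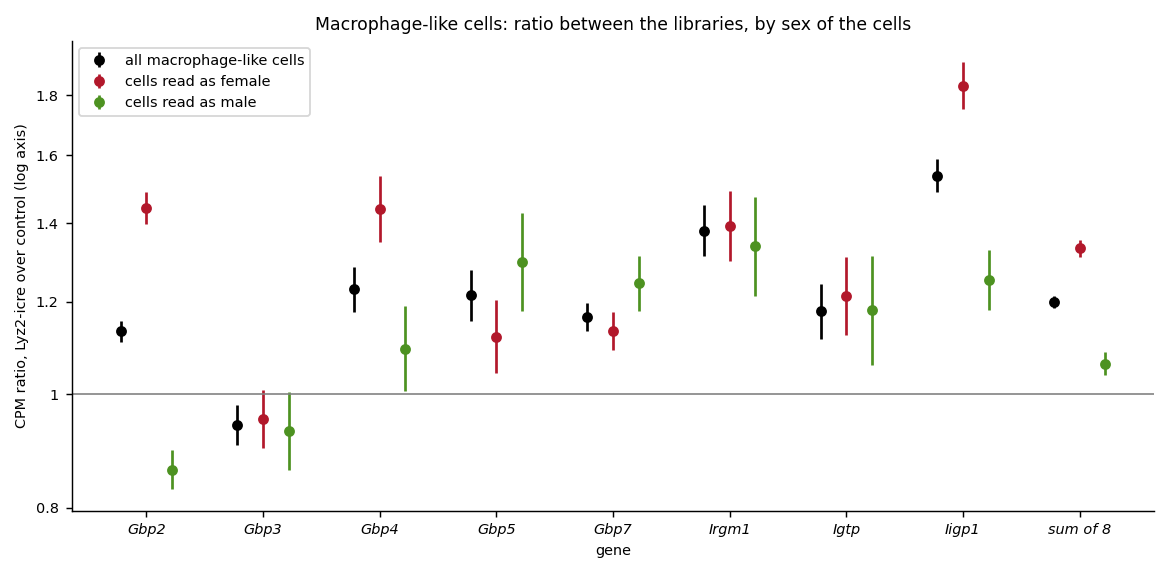
Ratio of CPM, Lyz2-icre over control (y axis, log scale), in all macrophage-like cells (black), in those read as female (red) and as male (green), for each gene and their sum (x axis); bars are exact conditional 95% intervals. Gbp2 lies above 1 in female (1.44) and below 1 in male cells (0.862), while Irgm1 is at 1.39 and 1.34.

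Within the macrophage-like cells, the members followed Cxcl9, the interferon gamma-induced attractant of T cells. At 2000 UMIs per cell, 42.8% of Lyz2-icre and 30.7% of control macrophage-like cells had a Cxcl9 UMI. The summed level in these was 1276 CPM in the Lyz2-icre and 1352 CPM in the control library, while cells without a Cxcl9 UMI had 531 and 422 CPM. Cells with Cxcl9 thus carried 2.40-fold (2.33 to 2.48) more in the Lyz2-icre and 3.20-fold (3.06 to 3.35) more in the control library.

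Members were unequal in this too. Gbp2 was 3.41-fold higher with Cxcl9 than without in the Lyz2-icre and 5.49-fold in the control library, Iigp1 2.51-fold and 4.18-fold, and Gbp5 2.91-fold and 4.52-fold. Gbp7 (1.81-fold and 1.66-fold), Irgm1 (1.80-fold and 2.09-fold), Igtp (1.74-fold and 2.12-fold) and Gbp3 (1.74-fold and 2.39-fold) differed least. All 8 members were higher with Cxcl9 in each library.

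Split this way, the genotype ratio of the sum was 0.944 (0.911 to 0.977) among cells with a Cxcl9 UMI and 1.26 (1.20 to 1.31) among those without. In the cells with Cxcl9, Gbp2 stood at 457 CPM in Lyz2-icre and 545 CPM in control cells (0.838) and Gbp3 at 86.5 and 121 CPM (0.717). In the cells without, Iigp1 had 87.8 and 47.2 CPM (1.86, 1.65 to 2.11) and Gbp2 134 and 99.4 CPM (1.35). The larger pooled level of the Lyz2-icre library thus went with a larger share of cells with Cxcl9 and with higher levels in the cells without it. Because Cxcl9 answers the same signal, the split describes one interferon-induced gene by another.

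Other splits gave smaller contrasts. Cells with a UMI of the chemokine gene Ccl8 (23.7% and 13.7%) had a sum 1.26-fold (Lyz2-icre) and 1.38-fold (control) that of cells without. Those with a UMI of the arginase gene Arg1 (54.9% and 36.8%) were at 0.854 and 0.819 of the rest. For Il1b the sum was at 0.961 and 1.08 of the rest, and for the cycling genes Mki67 or Top2a at 0.976 and 0.879. Single members differed more, such as Iigp1 with Il1b (0.715 and 0.830) and in cycling cells (0.856 and 0.661). Gbp4 went the other way with Il1b (1.16 and 1.44). The genotype ratio of the sum stayed between 1.08 and 1.30 on either side of these 4 splits.

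**Figure D4:**
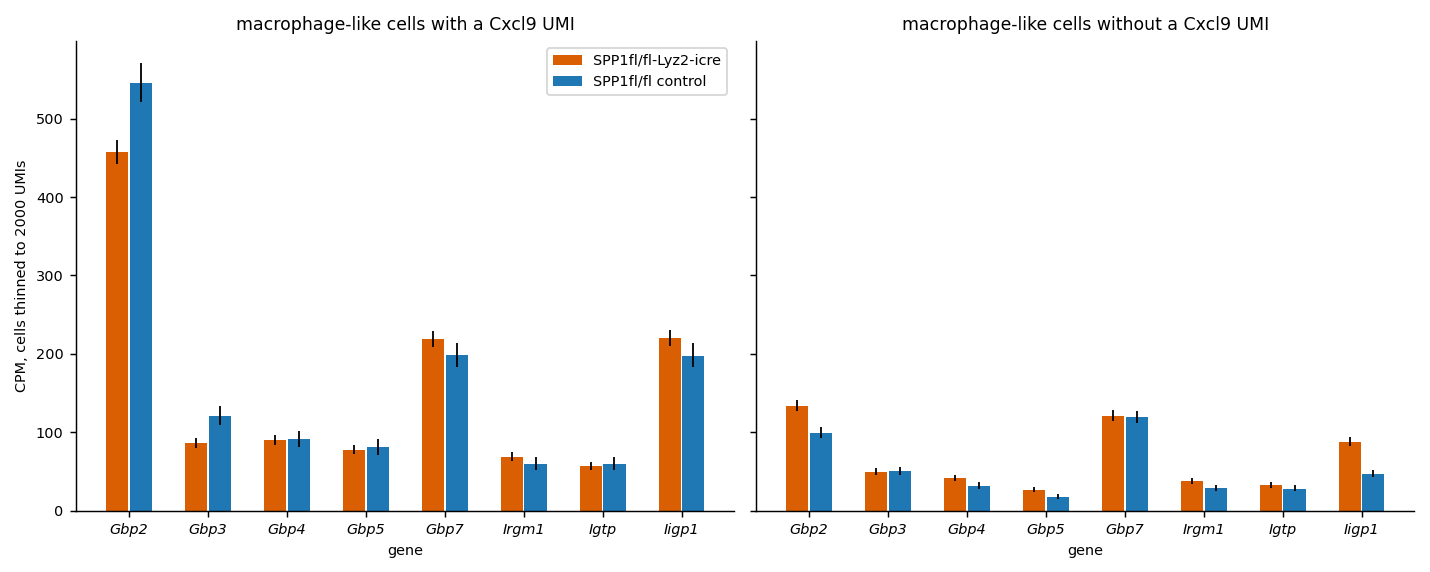
Level of each gene in CPM (y axis, from 0) in macrophage-like cells thinned to 2000 UMIs, with a Cxcl9 UMI (left panel) and without (right panel), orange for SPP1fl/fl-Lyz2-icre and blue for SPP1fl/fl control; bars are exact Poisson 95% intervals. Every gene is higher with Cxcl9, and Gbp2 is lower in Lyz2-icre than in control cells on the left (457 and 545 CPM) and higher on the right (134 and 99.4 CPM).

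The transcripts were spread unevenly over the cells. At 2000 UMIs, 38.9% of Lyz2-icre and 47.7% of control macrophage-like cells had no UMI of any member, 29.8% and 28.4% had 1 member, and 6.98% and 5.29% had 4 or more. The 10% of cells with most member UMIs held 43.9% of them in the Lyz2-icre and 49.9% in the control library. Mean numbers of members detected per cell were 1.19 and 0.961. Of the classes of 50 cells that had cells at this depth, regulatory T-like cells had the highest mean, at 1.65 (48 cells) and 1.53 (83 cells). CD8 T-like cells had 0.541 and 0.718.

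**Figure D5:**
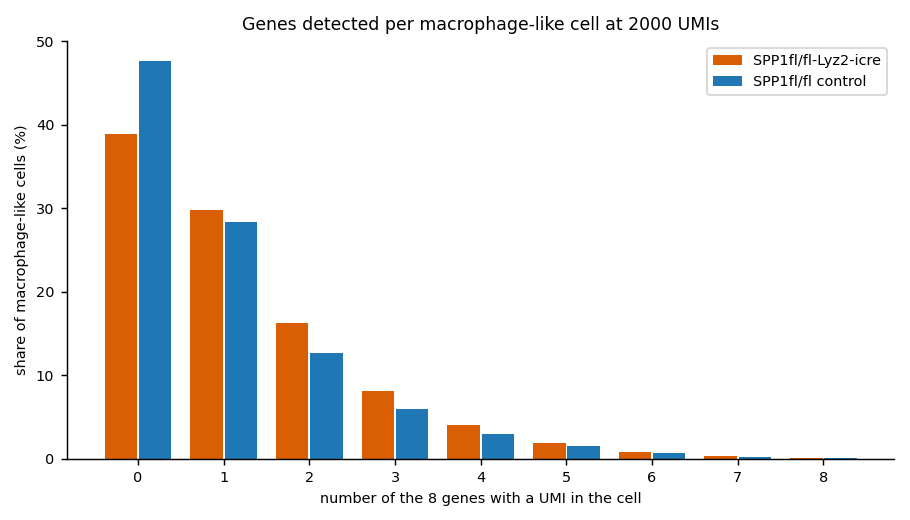
Share of macrophage-like cells in percent (y axis, from 0) by the number of the 8 genes with a UMI in the cell (x axis), with every cell thinned to 2000 UMIs, orange bars for SPP1fl/fl-Lyz2-icre and blue bars for SPP1fl/fl control. Cells with none of the genes make up 38.9% of the Lyz2-icre and 47.7% of the control cells.

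None of the other genes listed for the interferon pathway passed 1.5-fold in macrophage-like cells, though most lists leaned the same way as the members. Of 17 related GTPases 7 reached 10 CPM, 5 of them higher in the Lyz2-icre library (median log2 0.12), among them Irgm2, a regulatory IRG, at 16.0 and 10.7 CPM (ratio 1.49), which shares sequence space with Igtp. Of 11 genes of interferon gamma signalling, 10 reached that level and 7 were higher (median 0.07). The feedback inhibitor Socs1 had 26.8 and 18.2 CPM (1.48), while the receptor chain Ifngr1 had 203 and 255 CPM (0.798, 0.780 to 0.815).

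Interferon gamma targets other than GTPases were higher in 15 of 15 (median 0.19), such as Cxcl9 at 898 and 723 CPM (1.24), the immune checkpoint ligand Cd274 at 101 and 84.0 CPM (1.20) and the peptide loader Tapbp at 294 and 235 CPM (1.25). Genes of the type I interferon pathway were divided, with 8 of 14 higher (median 0.02). Rsad2, an antiviral enzyme, was at 32.4 and 45.2 CPM (0.717) and the ubiquitin-like Isg15 at 97.7 and 117 CPM (0.838), against Zbp1, a nucleic acid sensor, at 96.3 and 75.7 CPM (1.27). Of all 7932 genes at 10 CPM, 3657 were higher, and medians over all these genes (-0.01) and over the 8 members (0.23) frame these values. In monocyte-like cells the corresponding medians were 0.51 over the members, 0.52 over the interferon gamma targets, 0.36 over the type I genes and 0.02 over all genes.

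Across 18 points, the 9 classes in each of the 2 libraries, genes whose log2(CPM + 5) ran most like that of the member sum included Borcs7 (Pearson r = 0.916), Tmem65 (0.857), Tbcc (0.812), Cd81 (0.797) and Gpx4-ps2 (0.797). These points share libraries and depths, and a shallow class such as neutrophil-like cells weighs as much as macrophage-like cells. Gpx4-ps2 is a pseudogene of Gpx4 and may share its reads. Borcs7 ranged from 13.4 CPM in control neutrophil-like to 51.5 CPM in Lyz2-icre fibroblast or tumour-like cells. Among the members themselves, likeness to the sum of the other 7 ran from 0.121 for Gbp4 and 0.276 for Gbp7 to 0.906 for Gbp3.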

How the data were processed

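Per the submitters' processing notes, the tools were bcl2fastq 5.0.1 and Cell Ranger and the genome build was mm10. Cell Ranger was version 8.0.1, per the file headers. Which gene annotation it used is not given in the sources used here. The authors deposited UMI counts per gene and barcode, without normalization and for called cells only, so free RNA could not be estimated from empty droplets. The libraries were 10x Genomics 3′ (version 3 chemistry), per the labels' protocols, and 3′ tags do not scale with transcript length.

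Cells needed 300 genes, 500 UMIs and a mitochondrial share of 15% or less, which kept 13915 of 13944 in the Lyz2-icre and 8724 of 9154 in the control library. Gates were sums of marker UMIs per 10000 UMIs of the cell, with thresholds set after marker levels, and no member level, had been seen: 20 for C1q genes, 20 for monocyte, 80 for neutrophil, 8 for cDC2, 20 for migratory dendritic, 5 for NK and T, and 20 for fibroblast or tumour markers. No doublet caller was run, and cells passing more than one gate were left out. Of 81 markers 2 symbols were not found.

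UMIs were summed per class and library and divided by the class total. Log2 ratios had 5 CPM added, and a difference of 1.5-fold at 10 CPM or more in either library was called, since 1 library per genotype allows no test. Counts had exact Poisson, ratios exact conditional binomial and shares Clopper-Pearson intervals, all for counting error only. The ratio, its interval and the fold rule were run on simulated Poisson counts with planted changes all past 1.5-fold. Such counts hold neither the unevenness between cells nor the smaller ratios seen here, so the run checks the calculation only. Values by sex, subset and number of members per cell are described beside the pooled ones. The 8 members were named in every class of 50 cells, and the other genes came from 4 lists and the 6 genes of highest correlation, and 1 gene that these name is not reported here. Members, lists and comparisons were chosen with earlier results of these data known. Alternatives are described in the closing section. Python 3.11.15, numpy 2.4.6, scipy 1.17.1, pandas 2.3.3, scanpy 1.11.5, leidenalg 0.10.2 and matplotlib 3.10.9 were used.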

Additional observations from a re-analysis of the deposited data

Results flagged for a closer look

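Several ratios of Lyz2-icre over control pointed in opposite directions in different groups of cells, with both counting intervals clear of 1, and none of these differences was tested. In macrophage-like cells, Gbp2 had a ratio of 1.44 among female and 0.862 among male cells. Gbp4 in monocyte-like cells had a ratio of 2.39 among female cells (36 and 22 UMIs) and 0.352 among male cells (12 and 25 UMIs), the male values coming from 93 Lyz2-icre and 41 control cells.

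Between cell classes, Gbp3 was at 1.49 in monocyte-like and 0.941 in macrophage-like cells. Igtp was at 4.30 in neutrophil-like cells, on 5 and 8 UMIs, and at 0.371 in cDC2-like cells, on 6 and 31 UMIs. Among macrophage-like cells, the sum of the 8 members had a ratio of 0.944 with a Cxcl9 UMI and 1.26 without one.

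Cells that passed no gate entered no comparison, and the sum was higher in them in the Lyz2-icre library than in the control library. Their 1164 and 857 cells had 654 and 379 CPM, a ratio of 1.73 (1.64 to 1.82), with Iigp1 at 66.0 and 23.7 CPM and Gbp2 at 216 and 104 CPM.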

How the results depend on the processing

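The log2 ratio of the summed members in macrophage-like cells, 0.26 as reported, was positive under all 16 alternatives. The alternative without a filter on low values is counted here and below, though it leaves every ratio as reported and so could not differ. The log2 ratio of the sum moved beyond its counting interval with gate thresholds halved (0.28), with the mean of per-cell CPM (0.30), in female cells only (0.41), in male cells only (0.087) and in cells without a Cxcl9 UMI at their full depth (0.40, a ratio of 1.32). At 2000 UMIs per cell that ratio was 1.26, and cells with a Cxcl9 UMI, not among these alternatives, were at 0.944. The count of members past 1.5-fold was 1 as reported, and 0 with gate thresholds doubled, with 20 CPM added, in male cells only and with the sexes weighted equally, an alternative chosen after the data were seen. Between 6 and 7 of the 8 members were higher in the Lyz2-icre library in macrophage-like cells under every alternative run over single members. Of 1038 other values, 953 stayed within their counting interval, 82 moved beyond it and 3 called ones changed sign: in male cells, Gbp5 (log2 -0.10) and Iigp1 (-0.92) in monocyte-like cells, and with gate thresholds doubled, Gbp2 in regulatory T-like cells (-0.074). The cause was not tested. Median-of-ratios scaling shifted the median of all genes by -0.02 in macrophage-like and by 0.46 in neutrophil-like cells. For 18 combinations of class and setting no value is given, because fewer than 20 cells of the class remained or no cluster held it.

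No paired analysis was possible because each genotype had 1 library, and leaving out a replicate would leave none. Outside macrophage-like cells the classes are small, and ratios of members with few UMIs there are imprecise.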
